A study of Mus musculus with 12 samples.

Results

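The 36 mouse forkhead transcription factor genes examined here are the Foxa to Foxq genes that carry a forkhead DNA-binding domain and have at least 1 open chromatin peak in mouse skin cells. A peak belonged to a member when its midpoint lay inside the gene or within 50 kb of it and no other protein-coding gene was nearer. By this rule 474 of 177240 peaks belonged to the 36 genes. That each of the 36 had a peak follows from how they were chosen and is no result. Of all 21887 protein-coding genes, 18110 had a peak. All 36 genes and all 474 peaks passed the filter on low counts, so none was left out of a test.

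Open chromatin was mapped by ATAC-seq, an assay whose transposase Tn5 cuts accessible DNA and adds sequencing adapters to it, in 6 samples of 5 groups from female mice of mixed strain. The normal groups, with 1 sample each from WT mice, were the interfollicular epidermis (IFE) and the hair follicle (HF). The tumour groups were K14 Epcam+ (1 sample; K14CreER, labelled as interfollicular epidermis), Lgr5 Epcam+ (2 samples, numbered 1 and 2) and Lgr5 Epcam- (1 sample; both Lgr5CreER and labelled as hair follicle). All tumour groups shared p53fl/fl, a lox-stop-lox (LSL) oncogene allele and Rosa-YFP+/+, and none of these alleles was in the WT groups. K14 drives the Cre recombinase in basal keratinocytes and Lgr5 in hair follicle stem cells, so the groups differ in the cell in which the tumour began as well as in genotype. Epcam, a surface protein of epithelial cells, was one of the sorting antibodies, next to CD45 of leukocytes, CD31 of endothelium and CD140a of fibroblasts. The title of the series names the epithelial to mesenchymal transition (EMT), in which carcinoma cells lose epithelial traits. No label says whether samples came from separate animals, so p-values measure only how far these samples differ from one another. That spread may be technical. Where Epcam+ tumours are set against both normals, the spread within a side also includes the difference of cell of origin. There HF and IFE form 1 side, and the other holds 1 K14 Epcam+ and 2 Lgr5 Epcam+ samples.

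Forkhead factors bind DNA through a winged-helix domain that can dock on sites within compact chromatin. Several are regulators of skin: Foxc1 and Foxp1 hold hair follicle stem cells in quiescence, Foxn1 and Foxq1 act in the differentiating hair, Foxi3 and Foxe1 act in hair follicle formation, and the FoxO proteins are kept out of the nucleus by Akt. Foxq1 and Foxc2 have been tied to EMT in carcinoma cells, and Foxf1, Foxf2 and Foxl1 are factors of the mesenchyme.

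RefSeq sequences upstream of annotated starts (build GRCm38.p6, the coordinates of mm10) were matched to 23 of the 36 members by symbol, with 28 entries. Entries were not found for Foxb1, Foxc2, Foxe1, Foxf1, Foxj1, Foxk1, Foxl1, Foxm1, Foxn2, Foxo4, Foxo6, Foxp2 and Foxq1. The 5 starts below are shown because a peak overlapping the bases before them rose in Epcam+ tumours (Foxa1, Foxd2 and the downstream start of Foxp1) or fell in Lgr5 Epcam- (Foxn1), or, for the upstream Foxp1 start, because it was the most open start of that gene in both normals. Each line gives the 250 bases before the start, 5′ to 3′ on the minus strand, on which all of these starts lie. Capitals mark 3 motifs searched on both strands, which were the forkhead core TGTTTAC, the AP-1 site TGANTCA and the GC box GGGCGG; matches on the opposite strand read GTAAACA and CCGCCC. No motif in capitals overlaps another.
Foxa1 (chr12:57546112-57546361): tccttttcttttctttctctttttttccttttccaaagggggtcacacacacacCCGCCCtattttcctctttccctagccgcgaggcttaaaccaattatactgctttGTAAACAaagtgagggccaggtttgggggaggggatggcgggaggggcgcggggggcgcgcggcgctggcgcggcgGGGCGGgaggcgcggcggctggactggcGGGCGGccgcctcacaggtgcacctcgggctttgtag
Foxd2 (chr4:114908899-114909148): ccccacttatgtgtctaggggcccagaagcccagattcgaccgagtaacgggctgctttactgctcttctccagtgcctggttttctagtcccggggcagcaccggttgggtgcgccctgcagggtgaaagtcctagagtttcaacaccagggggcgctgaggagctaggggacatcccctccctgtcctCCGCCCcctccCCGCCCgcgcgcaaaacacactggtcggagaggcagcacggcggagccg
Foxn1 (chr11:78386609-78386858): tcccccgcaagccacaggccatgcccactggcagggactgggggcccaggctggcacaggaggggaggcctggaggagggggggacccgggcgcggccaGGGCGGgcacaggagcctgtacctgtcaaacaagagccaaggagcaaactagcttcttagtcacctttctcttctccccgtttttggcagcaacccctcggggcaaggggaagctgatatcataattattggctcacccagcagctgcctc
Foxp1 downstream start (chr6:99028299-99028548): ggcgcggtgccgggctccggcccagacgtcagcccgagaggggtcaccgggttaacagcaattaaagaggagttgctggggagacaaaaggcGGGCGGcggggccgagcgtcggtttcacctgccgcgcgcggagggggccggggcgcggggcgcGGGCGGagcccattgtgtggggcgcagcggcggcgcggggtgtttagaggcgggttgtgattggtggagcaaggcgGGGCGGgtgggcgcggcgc
Foxp1 upstream start (chr6:99520994-99521243): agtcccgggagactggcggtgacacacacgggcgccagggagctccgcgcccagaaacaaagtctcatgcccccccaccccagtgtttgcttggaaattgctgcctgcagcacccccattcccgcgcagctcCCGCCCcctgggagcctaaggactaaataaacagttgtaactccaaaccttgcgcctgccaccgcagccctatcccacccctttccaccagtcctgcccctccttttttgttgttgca
The forkhead core was found in 1 of the 28 member entries, at base -141 from the Foxa1 start, and in 3.17% of all 32851 promoters of the same length. The AP-1 site was found in 0 of 28 entries and in 6.75% of all promoters. The GC box was found in 22 of 28 entries and in 32.7% of all promoters, and all 5 printed entries hold it. A match is a run of letters and no evidence of binding.

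The 474 peaks were spread unevenly. Foxp1 held 108 and Foxn3 held 91, together 199 peaks or 42.0%, while Foxb1, Foxi2 and Foxo4 had 1 each. By place, 35 peaks lay at most 1 kb from a gene's start or end, 282 elsewhere inside a gene and 157 outside. The median member peak was 1118 bp wide, against 1097 bp over all peaks.

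Levels are given as CPM, counts divided by a library size that was adjusted with the trimmed mean of M-values (TMM), summed over a gene's peaks. Where 6 levels follow each other, they stand in the order HF, IFE, K14 Epcam+, Lgr5 Epcam+ 1, Lgr5 Epcam+ 2 and Lgr5 Epcam-. Per kb of peak, the mean CPM over the 6 samples was highest at Foxj2 (8.77), Foxo4 (8.16), Foxn2 (7.91), Foxc2 (7.57) and Foxm1 (7.21). It was lowest at Foxp3 (1.44), the factor of regulatory T cells, Foxb1 (1.66), Foxp2 (1.70) and Foxi1 (1.72). Read density outside peaks was 1.12 and 0.930 CPM per kb in HF and IFE, 0.519 to 0.666 in the Epcam+ tumours and 0.746 in Lgr5 Epcam-. How near the lowest members came to it differed by sample. Foxb1 and Foxi1 had 4.23 and 3.96 CPM per kb in IFE, and 0.739 and 0.527 in Lgr5 Epcam+ 1. Summed counts in peaks ran from 32086654 in HF to 62941406 in Lgr5 Epcam+ 1, and 24.0% (HF) to 47.2% (Lgr5 Epcam+ 1) of counts fell in peaks. That share was higher in the 3 Epcam+ tumours than in both normals.

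**Figure D1:**
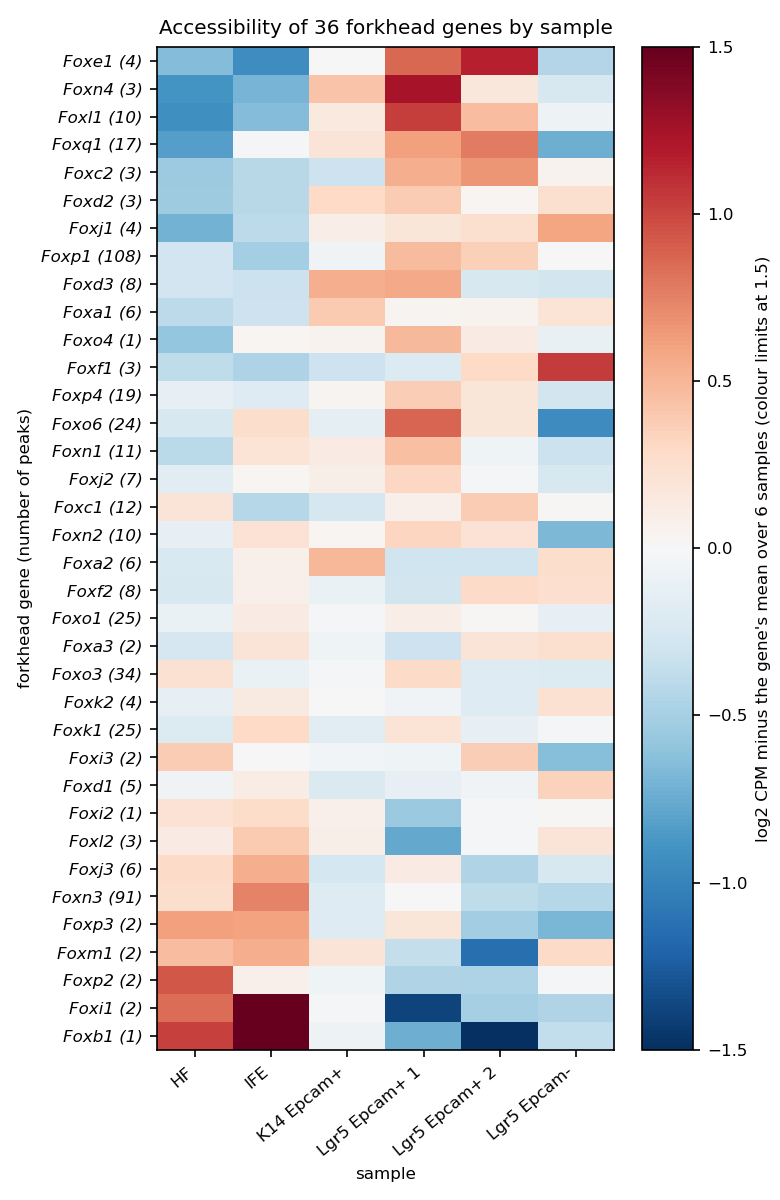
Heat map of the 36 forkhead genes (rows, with the number of peaks) in the 6 samples (columns). Colour is log2 CPM minus the gene's mean over the samples, cut off at 1.5 to either side, and rows are ordered by the tumour against normal difference; Foxe1, Foxn4 and Foxl1 at the top are high in the Epcam+ tumours and Foxi1 and Foxb1 at the bottom are high in the normals.

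The first comparison set the 3 Epcam+ tumour samples against the 2 normal epithelia. Accessibility rose at 7 forkhead genes and fell at 3 (edgeR quasi-likelihood test, adjusted p under 0.05). The 7 were Foxe1, Foxn4, Foxl1, Foxq1, Foxc2, Foxj1 and Foxp1, and the 3 were Foxb1, Foxi1 and Foxn3. Over all 18108 genes tested, 14.7% were called higher and 9.17% lower, so the members' count was near the general level. With total counts as the library size the split was 3 higher and 4 lower, where 1860 of all 18108 genes were called higher and 2718 lower. With scaling factors from the gene sums the members split into 5 higher and 4 lower. The share of all genes called at that setting is not reported here, so this split cannot be set against it. The median difference of the 36 members was 0.11 on the log2 scale, against 0.07 over all genes. All 3 tumours lay above both normals at 13 members (36.1%, against 28.7% of all genes) and below both at 10 (27.8%, against 21.9%).

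Foxl1, a factor of the subepithelial mesenchyme of the gut, showed the steepest local change. Its summed level was 33.9 and 40.6 CPM in the normals HF and IFE, 70.7 in K14 Epcam+, 131 and 88.5 in Lgr5 Epcam+ and 60.7 in Lgr5 Epcam-. Every tumour sample lay above both normals. The Epcam+ tumours exceeded the normals by 1.38 ± 0.283 (log2, SE; adjusted p = 0.000757 in edgeR's test), and by 2.86 when only peaks within 10 kb of the gene were summed. The gene spans chr8:121127685-121130644, and 6 of its 10 peaks rose and 1 fell. The peak at chr8:121133896-121134967, whose midpoint lies 3.79 kb from the gene, had 1.46 and 1.09 CPM in HF and IFE, 16.6 in K14 Epcam+, 32.9 and 21.8 in Lgr5 Epcam+ and 15.7 in Lgr5 Epcam-. It was near the density outside peaks in both normals and open in all 4 tumour samples, a difference of 4.22 ± 0.45 for Epcam+ tumours (adjusted p = 0.000541). The peak at chr8:121124911-121126177, on the other side of the gene, had 2.84, 2.90, 16.2, 28.7, 22.9 and 17.6 CPM in the same order of samples and rose by 2.98. The 1 peak that fell, at chr8:121158544-121159679, had 13.5 and 22.1 CPM in the normals and 3.84 to 6.91 in the Epcam+ tumours (log2 difference -1.75, adjusted p = 0.00731). The peaks that rose lay within 22.0 kb of the gene, and the one that fell lay 28.5 kb away.

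Foxc2 and Foxf1 are the neighbours of Foxl1 on chromosome 8, and the 3 genes did not move alike. Foxc2, a factor of mesoderm and lymphatic vessels, had 21.0, 23.0, 24.8, 44.7, 48.7 and 31.8 CPM in HF, IFE, K14 Epcam+, Lgr5 Epcam+ 1 and 2 and Lgr5 Epcam-. Both Lgr5 Epcam+ samples stood clearly above the normals, while K14 Epcam+ exceeded IFE by little. The tumour difference was 0.84 ± 0.283 (adjusted p = 0.031). It came mostly from the peak over the lower-coordinate end of the gene span, at chr8:121115775-121117018. That peak had 5.57 and 7.23 CPM in the normals, 12.5 to 23.7 in the Epcam+ tumours and 14.8 in Lgr5 Epcam-. Its tumour difference was 1.60 (adjusted p = 0.0107, and 0.0571 without Lgr5 Epcam+ 1). Foxf1, a factor of visceral mesenchyme, had 5.26 and 4.97 CPM in the normals, 5.50, 5.91 and 8.41 in the Epcam+ tumours and 14.2 in Lgr5 Epcam-. The Epcam- sample was the highest, and the Epcam+ tumours lay above the normals by little (tumour against normal 0.37, adjusted p = 0.468).

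Foxq1 spans chr13:31558170-31560976 and is required for normal hair shafts. It had 65.3 and 113 CPM in HF and IFE, 132 in K14 Epcam+, 177 and 199 in Lgr5 Epcam+ and 69.7 in Lgr5 Epcam-. The Epcam+ tumours were above both normals (0.93 ± 0.283, adjusted p = 0.0172), and the Epcam- tumour lay next to HF. Within the locus 3 of 17 peaks rose and 3 fell, in separate stretches. On the higher-coordinate side, the peak at chr13:31567197-31568675 had 2.31, 2.93, 28.4, 39.8, 45.2 and 18.2 CPM, high in all 4 tumour samples (3.85 ± 0.355, adjusted p = 0.000504). The peak at chr13:31572728-31573801 had 1.85, 5.57, 20.4, 24.1, 24.8 and 2.13 CPM, high in the Epcam+ tumours and low in the Epcam- tumour (2.64, adjusted p = 0.00286). On the lower-coordinate side, a run of 3 peaks was open in IFE. That at chr13:31528705-31529743 had 2.87 CPM in HF, 9.27 in IFE and 0.497 to 0.959 in the Epcam+ tumours (-3.18, adjusted p = 0.00233). That at chr13:31530684-31531691 had 1.85, 7.72 and 0.325 to 0.912 CPM in the same order (-3.08, adjusted p = 0.00488). Without IFE the pair had -2.10 and -1.71, and the call of the latter was lost (adjusted p = 0.0571). At both, IFE was well above the density outside peaks. HF had 2.87 and 1.85 CPM at these peaks of about 1 kb, against a density of 1.12 CPM per kb outside peaks in HF.

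**Figure D2:**
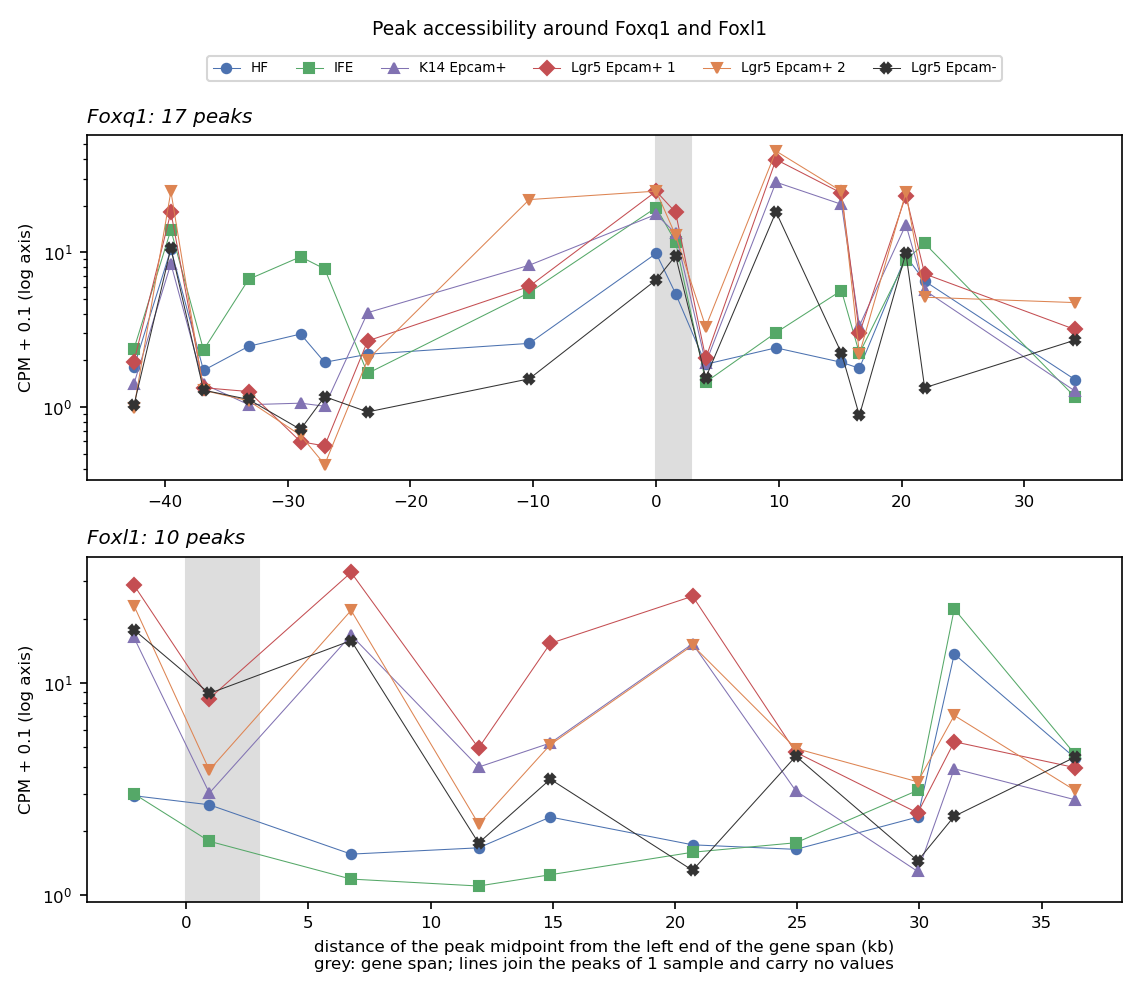
Level of each peak around Foxq1 (17 peaks, top) and Foxl1 (10 peaks, bottom) in the 6 samples, as CPM plus 0.1 on a log axis, against the distance of the peak midpoint from the left end of the gene in kb. Peaks near 10 and 15 kb at Foxq1 and near 7 and 21 kb at Foxl1 are high in the Epcam+ tumours, and the Epcam- sample joins them at the first of each pair and falls to the normal level at the second.

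Foxf2 and Foxc1 lie near Foxq1 on chromosome 13 and passed no test as whole genes. Foxf2, a factor of fibroblasts and pericytes, had 24.6 and 30.5 CPM in the normals, 26.9, 23.9 and 35.2 in the Epcam+ tumours and 34.4 in Lgr5 Epcam-, so the groups overlapped (0.06, adjusted p = 0.9). Foxc1, a keeper of follicle stem cell quiescence, had 90.7 and 59.0 CPM in HF and IFE, 66.4 in K14 Epcam+, 83.6 and 103 in Lgr5 Epcam+ and 80.4 in Lgr5 Epcam-. Here too the groups overlapped (0.17, adjusted p = 0.69), and 2 of its 12 peaks fell and 0 rose. The median of other peaks within 5 Mb of Foxq1 was -0.05.

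Foxe1, a factor of thyroid and hair follicle, had 13.0 and 10.7 CPM in HF and IFE, 20.2 in K14 Epcam+, 37.1 and 45.6 in Lgr5 Epcam+ and 15.0 in Lgr5 Epcam-. The Lgr5 Epcam+ pair was highest, and the Epcam- sample was just above the normals. Its tumour difference was 1.54 ± 0.317 (adjusted p = 0.00112), and 3 of 4 peaks rose. Among them was the peak over the lower-coordinate end of the gene span, at chr4:46342419-46343944 (1.54, adjusted p = 0.0194). Foxn4, a factor of retinal and spinal progenitors, had 5.46, 6.23, 13.6, 23.9, 11.4 and 8.58 CPM in HF, IFE, K14 Epcam+, Lgr5 Epcam+ 1 and 2 and Lgr5 Epcam-. The 2 Lgr5 Epcam+ samples differed from each other more here than at any other member (log2 difference 1.07), yet both were above the normals (1.48 ± 0.339, adjusted p = 0.00208). The change was carried by 1 intragenic peak at chr5:114269576-114270659, with 1.74 and 2.10 CPM in the normals and 8.37, 15.7 and 7.67 in the Epcam+ tumours (2.47, adjusted p = 0.00404). Foxj1, the master factor of motile cilia, had 16.4 and 20.4 CPM in the normals, 28.8, 30.5 and 31.6 in the Epcam+ tumours and 40.3 in Lgr5 Epcam-. All tumour samples were above both normals (0.72 ± 0.261, adjusted p = 0.0442 for Epcam+).

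The 3 members that fell in tumours were of different kinds. Foxi1, a factor of ionocytes, had 5.62 and 8.99 CPM in HF and IFE, 3.11, 1.20 and 2.23 in the Epcam+ tumours and 2.30 in Lgr5 Epcam- (-1.75 ± 0.394, adjusted p = 0.00186). Foxb1, a factor of the developing brain, rests on 1 small peak with 2.62, 4.42, 1.22, 0.773, 0.417 and 0.995 CPM (-2.13 ± 0.449, adjusted p = 0.000979). Normals were above tumours at both, and some tumour levels were near the height that read density outside peaks would give. For Foxi1 that height is 1.51 CPM in K14 Epcam+ and 1.18 and 1.34 in Lgr5 Epcam+, and for Foxb1 it is 1.17 and 0.973 CPM in HF and IFE, 0.696 in K14 Epcam+ and 0.543 and 0.617 in Lgr5 Epcam+. Other peaks within 5 Mb of Foxi1 had a median of -0.54 in this comparison, and the part of the region in the difference was not tested.

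Foxn3, a checkpoint factor and repressor, was the third. It had 461 and 644 CPM in HF and IFE, 335 in K14 Epcam+, 384 and 296 in Lgr5 Epcam+ and 286 in Lgr5 Epcam-, with every tumour below both normals (-0.71 ± 0.243, adjusted p = 0.0335). Of its 91 peaks 41 fell and 5 rose. The most reduced, inside the gene at chr12:99397889-99398949, had 24.1 and 27.9 CPM in the normals and 1.33, 1.66, 1.95 and 1.11 in K14 Epcam+, Lgr5 Epcam+ 1 and 2 and Lgr5 Epcam-. Both normals were open and all 4 tumour samples closed (-3.98 ± 0.35, adjusted p = 0.000504). A further intragenic peak at chr12:99529216-99530323 had 8.85 and 6.06 CPM in the normals against 0.534 to 1.45 in the Epcam+ tumours (-2.99, adjusted p = 0.0017).

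Foxp1, a repressor that keeps follicle stem cells quiescent, went the other way. It had 507 and 435 CPM in the normals, 598, 857 and 791 in the Epcam+ tumours and 621 in Lgr5 Epcam-, with all tumours above both normals (0.67 ± 0.245, adjusted p = 0.0464). Of 108 peaks 28 rose and 11 fell. Intragenic peaks at chr6:99446598-99447807 (2.84 and 1.89 CPM in the normals, 26.8, 35.7 and 17.5 in the Epcam+ tumours, 24.6 in Lgr5 Epcam-) and chr6:99343530-99345476 (3.75 and 3.16, then 15.0, 34.4 and 38.4, then 16.2) were low in both normals and high in all 4 tumour samples (3.49 and 3.08 on the log2 scale for Epcam+). The starts of the gene differed in level. The peak over the downstream start printed above, chr6:99026715-99029125, had 8.98 and 9.56 CPM in HF and IFE, 33.1, 45.1 and 30.1 in the Epcam+ tumours and 37.4 in Lgr5 Epcam- (1.96 ± 0.301, adjusted p = 0.00154). The peak over the upstream start, chr6:99520805-99523755, had 25.3 and 24.7 CPM in the normals, 32.7, 49.5 and 30.5 in the Epcam+ tumours and 30.8 in Lgr5 Epcam- (0.59, adjusted p = 0.139). Both normals were open at the upstream start, and at the downstream start the tumours reached a like height; the difference between the 2 starts was not tested. A further start lies in the peak chr6:99265667-99266792, with 4.35, 7.23, 2.62, 4.40, 5.77 and 1.75 CPM, where the groups overlapped (-0.44, adjusted p = 0.479).

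**Figure D3:**
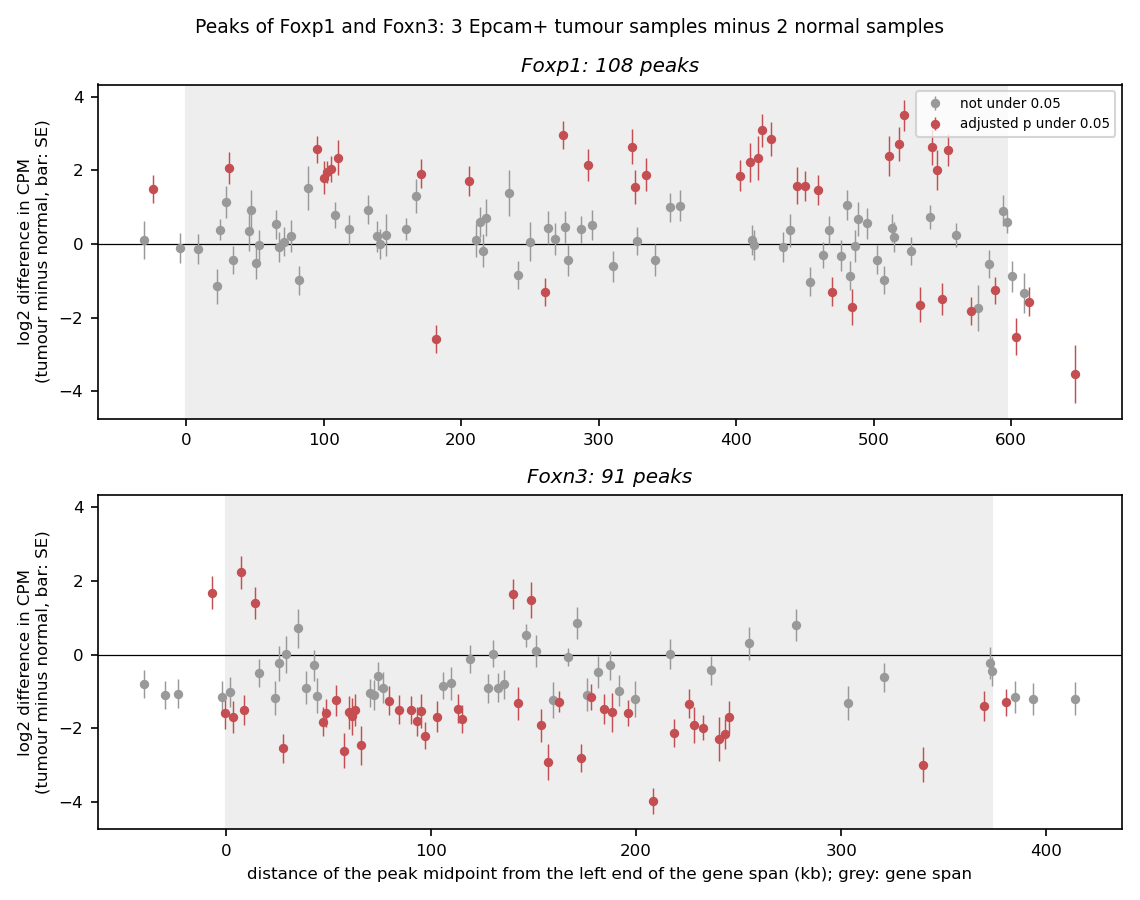
Difference of each peak of Foxp1 (108 peaks, top) and Foxn3 (91 peaks, bottom) between 3 Epcam+ tumour samples and 2 normal samples, in log2 CPM with the SE as bars, against distance from the left end of the gene in kb. Red points passed an adjusted p of 0.05: 28 above and 11 below 0 at Foxp1, 5 above and 41 below 0 at Foxn3.

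Of 18 peaks that overlapped the 250 bases before an annotated start, 3 rose in Epcam+ tumours and 0 fell. Over all peaks 15.0% were called higher and 15.3% lower, so 3 of 18 was near the general share. The share over the start peaks of all genes was not computed. The 3 belonged to Foxp1, Foxd2 and Foxa1. Foxd2, expressed in mesenchyme, had 5.10 and 6.75 CPM at its start in the normals, 14.2, 17.4 and 12.6 in the Epcam+ tumours and 14.3 in Lgr5 Epcam- (1.32 ± 0.361, adjusted p = 0.0191). Foxa1, a pioneer factor of endodermal and glandular epithelia, had 3.03, 5.02, 12.1, 10.8, 7.79 and 2.89 CPM at chr12:57546252-57547373, a peak that covers 110 of the 250 bases printed above but not the start itself. Epcam+ tumours were high there and Lgr5 Epcam- was not (1.35 ± 0.419, adjusted p = 0.0321). The call was lost without HF (1.03, adjusted p = 0.172), without K14 Epcam+ (0.101) and without Lgr5 Epcam+ 1 (0.0994). Over the whole Foxa1 locus the level was 14.5 and 15.3 CPM in the normals, 24.9, 19.5 and 19.7 in the Epcam+ tumours and 21.9 in Lgr5 Epcam- (0.52, adjusted p = 0.172).

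Foxm1, which drives mitotic genes, had 22.1 and 23.4 CPM in the normals, 18.3, 12.5 and 7.28 in the Epcam+ tumours and 19.5 in Lgr5 Epcam-, with the Epcam+ tumours below both normals (-0.84, adjusted p = 0.0541, not called). Its 2 neighbouring intragenic peaks moved in opposite directions. That at chr6:128365606-128366889 had 20.1 and 20.2 CPM in the normals and 5.94, 4.25 and 2.85 in the Epcam+ tumours (-2.21 ± 0.377, adjusted p = 0.00241). That at chr6:128364335-128365431 had 1.98 and 3.22 CPM in the normals and 12.3, 8.23 and 4.43 in the Epcam+ tumours (1.68 ± 0.508, adjusted p = 0.0286). In Lgr5 Epcam- they had 6.52 and 13.0 CPM, so this sample resembled the Epcam+ tumours at both. Other peaks within 5 Mb of Foxm1 had a median of 0.18 in Epcam+ tumours against normals. Their median was 0.65 in K14 Epcam+ against IFE and -0.62 in Lgr5 Epcam+ against K14 Epcam+. The part of this region in the Foxm1 difference was not tested.

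Of the 4 FoxO genes, which act downstream of insulin and Akt signalling, 0 were called and Foxo1 and Foxo3 were nearly level. Foxo1 had 127 and 149 CPM in the normals, 135, 146 and 139 in the Epcam+ tumours and 125 in Lgr5 Epcam- (0.02, adjusted p = 0.961). Foxo3 had 234 and 186, then 196, 243 and 175, then 174 (-0.04, adjusted p = 0.927). Tumours and normals overlapped at both. Foxo6 had 142 and 202 CPM in the normals, 152, 307 and 190 in the Epcam+ tumours and 87.4 in Lgr5 Epcam- (0.33, adjusted p = 0.442), with the widest range of the FoxO genes. Foxo4, with 1 peak, had 6.77 and 10.4 CPM in the normals, 10.5, 14.2 and 11.1 in the Epcam+ tumours and 9.37 in Lgr5 Epcam-, so the Epcam+ tumours lay above both normals (0.48, adjusted p = 0.354). Beneath these totals single peaks moved: 5 rose and 6 fell at Foxo3, 2 and 2 at Foxo1, and 4 and 1 at Foxo6. Foxn1, the factor lost in nude mice, had 45.6 and 69.8 CPM in the normals and 65.6, 82.7 and 57.9 in the Epcam+ tumours (0.25, adjusted p = 0.527), and Foxi3 had 7.72 and 5.88 against 5.75, 5.69 and 7.63 (-0.10, adjusted p = 0.863). Groups overlapped at both.

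Peak by peak, 72 of the 474 member peaks rose in Epcam+ tumours and 79 fell (15.2% and 16.7%), where 15.0% and 15.3% of all peaks were called higher and lower. Among the 275 peaks that reached 5 CPM in at least 1 sample, 68 rose and 45 fell (24.7% and 16.4%; 25.1% and 15.9% over all such peaks). Among the 199 weaker ones, 4 rose and 34 fell (2.01% and 17.1%; 2.06% and 14.6% over all such peaks). Without Foxp1 and Foxn3 the counts were 39 and 27 of 275. By place, 4 rose and 2 fell of 35 at a gene's start or end, 46 and 56 of 282 inside genes and 22 and 21 of 157 outside.

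The gene-level count of 10 fell to 6 without HF or without Lgr5 Epcam+ 1 and to 5 in the single-end run alone. Foxe1, Foxl1, Foxn4 and Foxb1 passed in every refit, and Foxi1 in all but the single-end run (adjusted p = 0.0982). Foxq1 was lost without HF (0.273), without Lgr5 Epcam+ 1 (0.0571), with total-count scaling (0.0578) and in the single-end run (0.0631). Foxn3 was lost without IFE (0.39), K14 Epcam+ (0.0776) or Lgr5 Epcam+ 2 (0.125), with both runs summed (0.0601) and in the single-end run (0.103). Foxc2, Foxj1 and Foxp1 were lost without most single samples, with total-count scaling and in the paired-end run. Foxm1 passed with DESeq2 size factors (0.0306), with peaks within 10 kb (0.0439) and without K14 Epcam+ (0.0224). With the density outside peaks subtracted, the 10 genes kept their direction. Foxb1 then went from -2.13 to -3.74, Foxi1 from -1.75 to -2.57, Foxn4 from 1.48 to 2.50, Foxe1 from 1.54 to 2.24, Foxl1 from 1.38 to 1.83, Foxj1 from 0.72 to 1.04 and Foxp1 from 0.67 to 0.99. Foxq1 (1.18), Foxc2 (1.06) and Foxn3 (-0.68) moved by less than the SE.

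**Figure D4:**
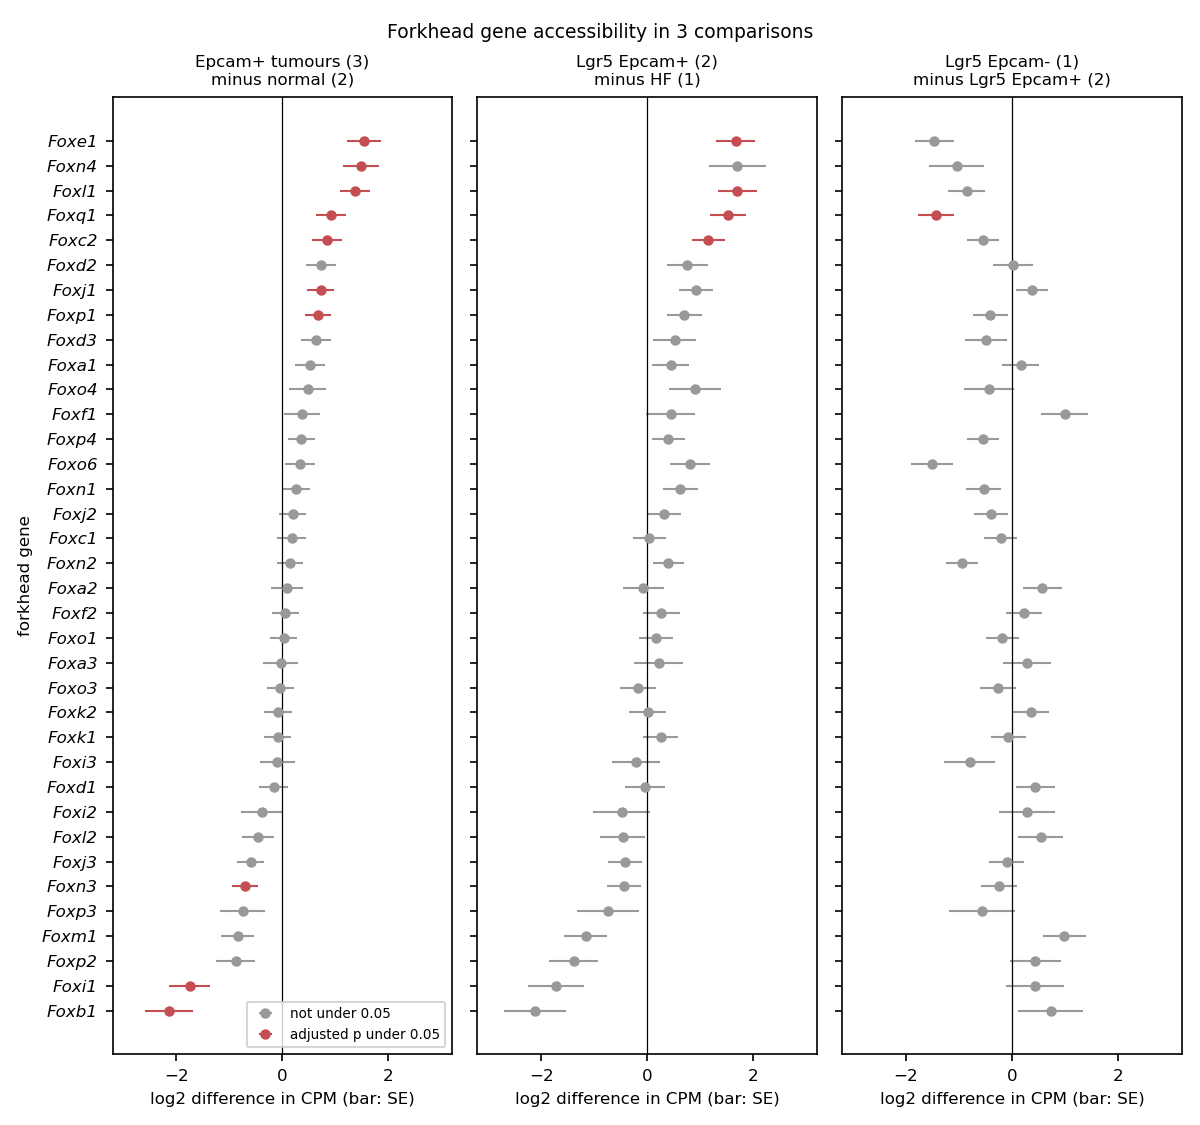
Differences of the 36 forkhead genes in 3 comparisons, as log2 CPM with the SE as bars: Epcam+ tumours against normals (left), Lgr5 Epcam+ against HF (middle) and Lgr5 Epcam- against Lgr5 Epcam+ (right). Red points passed an adjusted p of 0.05, 10 on the left, 4 in the middle and 1 (Foxq1) on the right.

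Against their labelled tissue of origin, the 2 Lgr5 Epcam+ samples were more accessible than HF at 4 members and less at 0, where 6.0% and 2.69% of all genes were called. The fit took the spread from the Lgr5 Epcam+ pair, the only group with 2 samples, for all groups, with 1 residual degree of freedom. The 4 were Foxl1 (1.70 ± 0.364, adjusted p = 0.0244 in edgeR's test), Foxe1 (1.67 ± 0.369, 0.0263), Foxq1 (1.53 ± 0.339, 0.0264) and Foxc2 (1.15 ± 0.313, 0.0497). All 4 were also called above, from partly the same samples. Foxc2 was lost with scaling factors from the gene sums (adjusted p = 0.0642), in the paired-end run (0.0607) and with total-count scaling (0.104). Foxn4 (1.69, adjusted p = 0.0796) and Foxb1 (-2.12, 0.0506) had differences as large and missed the threshold. The members' median was 0.26, against 0.22 over all genes. With total counts as the library size the median over all genes moved from 0.22 to -0.11, and the members split into 3 higher and 4 lower (Foxb1, Foxi1, Foxm1 and Foxp2). Of all 18108 genes, 775 were then called higher and 1237 lower. With scaling factors from the gene sums the members also split into 3 higher and 4 lower, and the median over all genes was 0.015. The share of all genes called at that setting is not reported here.

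Among peaks, 54 rose and 36 fell against HF, where 9.67% and 7.68% of all peaks were called. With total counts as the library size the split was 43 and 65, where 14155 of all 177238 peaks were called higher and 22933 lower. With TMM, Foxp1 had 23 higher and 8 lower, Foxq1 6 and 2, Foxo6 5 and 1, and Foxn3 3 and 13. The lower peaks included 3, at Foxp1 and beside Foxn2, with their highest level in HF. That at chr6:99528186-99529399 had 50.9 CPM in HF, 13.9 in IFE, 3.77, 4.58 and 8.60 in the Epcam+ tumours and 1.90 in Lgr5 Epcam- (Lgr5 Epcam+ against HF -2.95, adjusted p = 0.000331). That at chr6:99571735-99572735, 49.5 kb from the gene, had 18.6 CPM in HF and 0.46 to 1.78 in all other samples (-4.36, adjusted p = 0.000506). A peak at chr17:88493869-88494869 beside Foxn2, a relative of Foxn3, had 10.6 CPM in HF and 0.679 to 1.65 elsewhere (-3.33, adjusted p = 0.00178). HF stood alone at the latter pair. At the starts, the peaks of Foxp1 (2.07), Foxd2 (1.56) and Foxj2 (1.11, adjusted p = 0.0338) were higher than in HF.

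K14 Epcam+ against IFE set 1 sample against 1 and has no test; a gene was called past a log2 ratio of 1 and a peak past 2. Foxn4 was higher by 1.12 (95% interval from counting error alone 0.898 to 1.36), and Foxi1 and Foxb1 were lower by -1.52 (-1.83 to -1.23) and -1.82 (-2.34 to -1.40). Over all genes 9.49% were past the limit upward and 8.37% downward. Foxe1 (0.92) and Foxn3 (-0.94) came close, and Foxq1 (0.22) and Foxc2 (0.11) did not. Of peaks 27 were higher and 29 lower, with 7.48% and 5.91% over all peaks. Foxp1 had 15 and 4 of them and Foxn3 1 and 15.

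The 2 tumour origins were then compared. Between Lgr5 Epcam+ and K14 Epcam+ 0 members were called by edgeR's test and 0 by DESeq2, with 2 at an unadjusted p under 0.05, and 0.011% of all genes were called. The 2 were Foxe1 (1.03 ± 0.356) and Foxc2 (0.91 ± 0.309), each with an adjusted p of 0.921. The question whether the change from normal to tumour differed by origin was tested as the difference of the 2 differences. By edgeR and by DESeq2 0 members were called, 2 were at an unadjusted p under 0.05, and 0.0% of all genes were called. Those 2 were Foxq1 (1.30 ± 0.487, adjusted p = 0.778) and Foxc2 (1.04 ± 0.459, adjusted p = 0.778). So Foxq1 and Foxc2 rose from HF to Lgr5 Epcam+ and had small ratios from IFE to K14 Epcam+, but a difference by origin did not pass the test. Of member peaks, 0 were called in either test by both tools, with 20 and 29 at an unadjusted p under 0.05; 0.00903% and 0.000564% of all peaks were called.

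HF and IFE were compared with 1 sample each and no test. Past a log2 ratio of 1 there were 0 of 36 members, where 4.99% of all genes were past it. With so few members, 0 is near that general share. The nearest were Foxp2 (0.84, counting interval 0.535 to 1.18), at 6.53 CPM in HF against 3.62, and Foxq1 (-0.79, -0.868 to -0.720). Foxc1 was higher in HF by 0.62 (0.541 to 0.701) and Foxn1 lower by -0.61 (-0.704 to -0.523). Of peaks 5 were past a log2 ratio of 2 upward and 1 downward (1.73% and 0.743% of all peaks). With total counts as the library size these were 7 and 0, where 3777 and 794 of all 177240 peaks were past it. With TMM, the 2 highest were the Foxp1 and Foxn2 peaks of HF described above (3.35 and 2.61), and the lowest was the Foxq1 peak at chr13:31530684-31531691 (-2.04).

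The last comparison set Lgr5 Epcam- against the 2 Lgr5 Epcam+ samples. Foxq1 fell by 1.43 ± 0.337 on the log2 scale (adjusted p = 0.0441 in edgeR's test; 0.0501 in the single-end run alone) and 0 members rose, where 2.31% and 2.02% of all genes were called lower and higher. Foxe1 (-1.47, adjusted p = 0.0532) and Foxo6 (-1.51, 0.0636) differed as much without passing, and both passed by DESeq2. Foxn2 had 57.3 CPM in Lgr5 Epcam- against 115 and 107 in Lgr5 Epcam+, the lowest of the 6 samples (-0.95, adjusted p = 0.108). Other peaks within 5 Mb of Foxn2 had a median of -0.46 in this comparison, and the part of the region in the difference was not tested. The members with the largest positive differences were Foxf1 (0.99, adjusted p = 0.255) and Foxm1 (0.98, 0.223). The members' median was -0.20, against -0.11 over all genes.

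Of member peaks 43 fell and 17 rose in Lgr5 Epcam-, where 5.75% and 6.81% of all peaks were called lower and higher. Foxp1 had 16 lower and 3 higher, Foxo6 6 and 0, Foxq1 5 and 0, and Foxk1 1 and 4. Of the 43 lower peaks, 23 reached 5 CPM in both normals. The Foxp1 peak at chr6:99388230-99389533 had 19.6 and 34.1 CPM in HF and IFE, 13.4 in K14 Epcam+, 24.5 and 27.3 in Lgr5 Epcam+ and 2.39 in Lgr5 Epcam- (-3.43 ± 0.401, adjusted p = 0.000238). The Foxn1 start printed above lies in the peak chr11:78385901-78387329, with 6.70, 15.6, 14.8, 23.2, 13.3 and 1.78 CPM (-3.36 ± 0.562, adjusted p = 0.00207). At both, the other 5 samples were open and Lgr5 Epcam- closed. The Foxp4 peak at chr17:47887450-47888586 fell most, from 19.0 and 17.5 to 0.886 CPM, below both normals at 6.66 and 4.68 (-4.36 ± 0.748, adjusted p = 0.00245). Foxp4, a relative of Foxp1, had a further peak at chr17:47957868-47959004 with 10.3 to 17.4 CPM in 5 samples and 1.26 in Lgr5 Epcam- (-3.72, adjusted p = 0.00438).

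Tumour peaks were kept or lost singly. The Foxl1 peak at chr8:121147865-121148945 had 1.63, 1.49, 15.1, 25.4, 14.9 and 1.21 CPM, so the Epcam- sample was at the level of the normals (-4.06 ± 0.662, adjusted p = 0.00182). Its neighbour at chr8:121133896-121134967 kept 15.7 CPM (-0.80, adjusted p = 0.259). At Foxq1 the peak at chr13:31572728-31573801 fell by 3.52 ± 0.514 (adjusted p = 0.000961) and that at chr13:31567197-31568675 by 1.22 (adjusted p = 0.0243), to 2.13 and 18.2 CPM.

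Of the 17 peaks that rose, 15 stayed under 5 CPM in all 5 other samples. The same count over all 12072 peaks called higher was not taken. Of those 12072, 4979 were under 5 CPM in every sample, Lgr5 Epcam- included, and of the 17 member peaks 3 were. At Foxp1 the peak at chr6:99063675-99064675 had 1.07 to 1.99 CPM in 5 samples and 10.7 in Lgr5 Epcam- (2.93 ± 0.578, adjusted p = 0.00517). At Foxk1, a factor that curbs autophagy genes, the peak at chr5:142457119-142458119 had 1.12 to 2.01 CPM in 5 samples and 9.46 in Lgr5 Epcam- (3.01, adjusted p = 0.00399). Beside Foxf2 the peak at chr13:31599197-31600197 had 0.681 to 1.79 CPM in 5 samples and 5.17 in Lgr5 Epcam- (2.77, adjusted p = 0.0062). Inside Foxj1 the peak at chr11:116333152-116334301 had 1.68 to 3.95 CPM in 5 samples and 11.1 in Lgr5 Epcam- (2.02, adjusted p = 0.0251). At each of the 4, Lgr5 Epcam- stood above all other samples, but these peaks were picked for their rise in that sample.

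**Figure D5:**
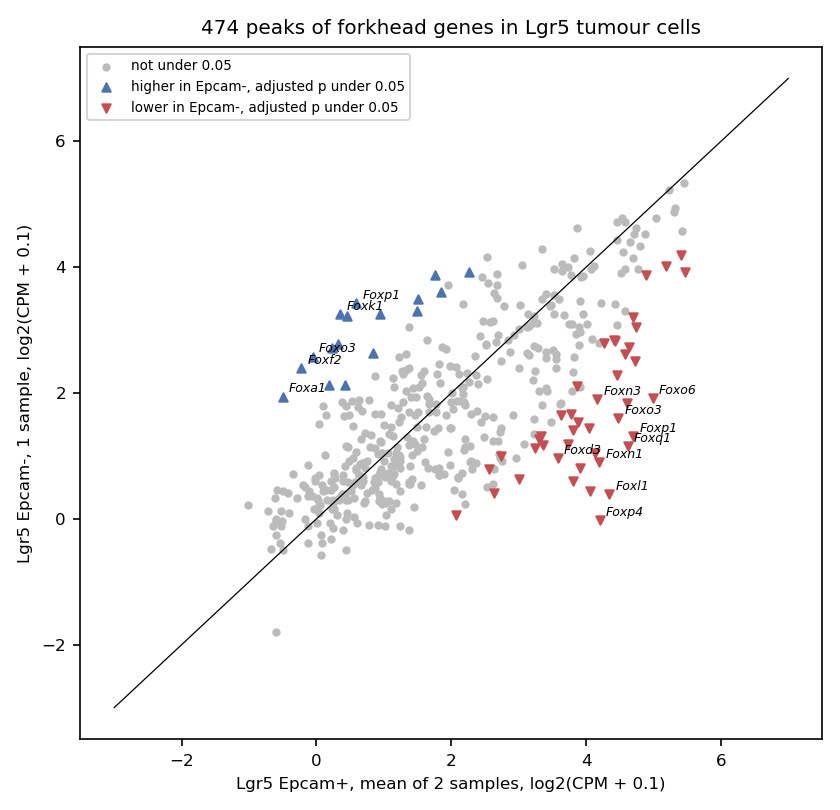
Each of the 474 member peaks in Lgr5 tumour cells, with the mean of the 2 Epcam+ samples on the horizontal axis and the 1 Epcam- sample on the vertical axis, both as log2 of CPM plus 0.1. Red marks are the 43 peaks lower and blue marks the 17 higher in Epcam- cells at an adjusted p of 0.05, and the line marks equal levels.

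Marker genes of other cell types moved in the same comparison. Of 10 keratinocyte markers 7 were lower in Lgr5 Epcam- and 0 higher, and their summed level was 640 CPM there against 1616 to 2267 in the other 5 samples. Epcam itself had 39.2 CPM in Lgr5 Epcam-, 186 to 201 in the Epcam+ tumours and 73.7 and 69.1 in the normals, so its order followed the sort. Of 10 fibroblast markers 5 were higher and 0 lower, with a sum of 1076 CPM against 390 to 604. Of the 9 leukocyte markers with a peak (Lyz2 had none) 0 were called, with a sum of 179 CPM, between the normals (128 and 135) and the Epcam+ tumours (227 to 234). Epcam+ tumours against normals had 2 of these 9 higher, Ptprc (1.47) and Cd68 (1.26). Endothelial markers summed to 469 and 582 CPM in the normals, 661 to 798 in the Epcam+ tumours and 583 in Lgr5 Epcam-, and 4 of 10 were called higher and 1 lower in Epcam+ tumours. The part of such cells in the forkhead differences was not tested, and in bulk samples fewer cells with an open site and less opening per cell cannot be told apart.

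Genes around the forkhead factors were described from lists, beside which 14.7% of all genes were called higher and 9.17% lower in Epcam+ tumours. Of 13 genes between insulin or growth factor receptors and FoxO, 1 rose and 1 fell there. Pik3r1, the regulatory subunit of PI3-kinase, was the one that fell, with 255 and 258 CPM in the normals and 173, 153 and 153 in the Epcam+ tumours (-0.68, adjusted p = 0.0383), and the groups did not overlap. Against HF, Pdpk1, the kinase that activates Akt, was higher in Lgr5 Epcam+ (1.21, adjusted p = 0.0372), and 0 of 13 were called in Lgr5 Epcam-.

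Of 15 genes known as FoxO targets 3 rose and 1 fell in Epcam+ tumours, near the 14.7% and 9.17% of all genes called higher and lower. Gadd45a, a stress and DNA damage gene, rose by 1.05, Bcl2l11, which encodes the death factor Bim, by 0.90, and Klf6 by 0.71, while Txnip, an inhibitor of glucose uptake, fell by 1.14 (72.7 and 109 CPM in the normals, 39.4, 43.5 and 40.6 in the Epcam+ tumours). In Lgr5 Epcam- only Pdk4 of the 15 was called, higher by 1.46 (adjusted p = 0.0303). The list's median in tumours was 0.03. Of 14 mitotic genes that Foxm1 drives, 12 had a peak (Aurka and Kif20a had none), and 1 rose and 1 fell, Plk1 (1.03) and Ccnb1 (-0.73), around a median of -0.06. Of 8 forkhead genes outside the 36 members, 5 had a peak (Foxh1, Foxr1 and Foxr2 had none). Foxb2 was higher in Epcam+ tumours (1.42, adjusted p = 0.0031). In Lgr5 Epcam- 2 of the 5 were higher, among them Foxs1 at 26.3 CPM against 6.77 and 9.71 in Lgr5 Epcam+ (1.68, adjusted p = 0.0494).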

How the data were processed

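The authors deposited 12 tables of raw counts per peak, 1 for the single-end and 1 for the paired-end sequencing of each of 6 samples, made with Bowtie2, HOMER, bedtools and HTSeq on mm10 per the submitters' processing notes; versions, read filters and peak calling were not given in the sources used here. Libraries were made with a Nextera kit per the labels. Runs of a sample were summed on chromosomes 1 to 14. On chromosomes 15 to X the paired-end run alone was used, because the single-end K14 Epcam+ run held 11.1% of its peak counts on chromosome 15 and beyond against 19.0% in the paired-end run. Both runs may count the same fragments, so counting intervals (95%, exact binomial) cover counting error only.

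Each peak went to the protein-coding gene nearest its midpoint, up to 50 kb away, and counts were summed per gene. edgeR 4.0.16 (R 4.3.3) was run over all genes or peaks with filterByExpr (minimum count 10), TMM, a robust quasi-likelihood fit and Benjamini-Hochberg adjustment at 0.05, in a model of 5 groups (1 residual degree of freedom) or, for tumour against normal, of 2 groups (3 residual degrees of freedom). Comparisons of 1 sample with 1 used log2 ratios (prior count 2) of at least 1 for genes and 2 for peaks. The fit was also run on simulated gene counts with known changes, and the outcome is not reported here. Density outside peaks assumes a genome of 2700 Mb. Several comparisons share samples.

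Alternatives were DESeq2 1.42.0, its size factors, TMM factors from the gene table, total-count scaling, no filter, each run alone, both runs summed throughout, peaks within 10 kb, a prior count of 0.5 and leaving out each sample; 5 CPM subsets and background subtraction were added after the data were seen. Members and lists were chosen with earlier results of these data known. Genes given sample by sample are the members called in any comparison and 12 members known in skin, EMT, cell cycle or Akt signalling. Peaks named are at most 8 per direction and comparison with the largest log2 ratio (2 per gene) and the highest peak of such members; others (start peaks, further peaks of Foxl1, Foxq1, Foxc2, Foxe1, Foxm1 and Foxj1, Foxn2, Foxo6 and Foxf1) were chosen after their values were seen. The name of the tumours' oncogene allele and the values of some genes on the lists are not reported here.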

Additional observations from a re-analysis of the deposited data

How the results depend on the processing

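Tumour against normal called 10 genes and 151 peaks; leaving out 1 sample at a time gave 6 to 9 genes and 68 to 142 peaks (68 without Lgr5 Epcam+ 1, 97 without IFE), and the single-end run alone gave 5 genes. For Lgr5 Epcam+ against HF, 4 genes, all higher, became 7 with TMM factors from the gene table and 7 with total-count scaling. In both of these settings 3 were higher and 4 lower. For Lgr5 Epcam- against Lgr5 Epcam+, 1 gene became 3 with the DESeq2 Wald test, 3 with gene-table factors, 3 with both runs summed, 3 with peaks within 10 kb, 2 with the paired-end run alone and 2 with total-count scaling. HF against IFE went from 0 genes to 1 with gene-table factors and 1 with the paired-end run, and from 6 peaks to 13 in the paired-end and 1 in the single-end run. K14 Epcam+ against IFE went from 3 genes to 5 in the single-end run, and Lgr5 Epcam+ against K14 Epcam+ from 0 peaks to 1. The cause was not tested. The other results with a count stayed within 1.5 times by the total called, which leaves out the split by direction. With total-count scaling, tumour against normal genes went from 7 higher and 3 lower to 3 and 4. Lgr5 Epcam+ against HF peaks went from 54 higher and 36 lower to 43 and 65.

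No called member gene changed sign under the alternatives run. Peaks were followed if named for the largest log2 ratios or, in tumour against normal, as the highest peak of a member. No called peak among these changed sign, and the signs of the other called peaks were not followed. Signs changed for uncalled tumour against normal values: Foxc1 (-0.053 with total-count scaling; -0.10 to 0.52 with 1 sample left out), Foxf2 (-0.13 with total-count scaling, -0.0084 with gene-table factors; -0.12 to 0.22), Foxi3 (0.14 within 10 kb; -0.28 to 0.11), Foxo1 (-0.051 with gene-table factors, -0.047 paired-end, -0.18 with total-count scaling; -0.088 to 0.14), Foxo3 (0.13 single-end; -0.20 to 0.13) and Foxn1 (-0.023 to 0.59). The highest peaks of Foxi3 (-0.071 with total-count scaling; -0.060 to 0.38), Foxn3 (0.11 single-end; -0.17 to 0.050) and Foxj1 (-0.061 to 0.63) did so too. No paired analysis was possible because the groups compared share fewer than 2 replicate numbers. Summed counts were at least 32086654 per sample, and which limit weighs most was not tested.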
